A study of Homo sapiens with 5 samples.

Results

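Crowded peak clusters are stretches of a chromosome in which the peak caller placed 5 or more peaks with at most 10000 bp between neighbours. They were taken from 2 lists of peaks for the transcription factor NRF2, on chromosomes 1 to 22, and were chosen by the spacing of the deposited peak positions within each list. Of 1925 peaks in the sulforaphane (SFN) list, 626 lay in 35 such clusters, and of 2199 in the vehicle list, 507 lay in 26, so 1133 of 4124 rows were members. A row is 1 called peak. The lists come from chromatin immunoprecipitation and sequencing (ChIP-seq) in BEAS-2B, an established cell line from human bronchial epithelium, exposed for 5 h to 10 µM D,L-sulforaphane, an activator of NRF2 (2 samples), or to 0.1% DMSO as vehicle (2 samples). A further vehicle sample was precipitated with rabbit IgG. Each treatment has 1 list and no values per sample, so no spread between replicates can be given, and all values are descriptions of 2 lists.

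Centromeres and the chromatin beside them are built largely of satellite DNA, short units repeated in tandem many times over. The assembly hg19 shows each centromere as a gap, with only some of the repeat copies assembled at its edges. Sequenced tags from copies that the assembly lacks can align to the copies that it holds, in a precipitate and in its control alike, and such places are commonly masked in ChIP-seq work. NRF2 is known to bind antioxidant response elements at genes of detoxification and redox balance. No sequence or gene table of that assembly was used here, so which repeats, motifs or genes lie under a peak was not determined.

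The lists differed in depth. The SFN list rested on 7448599 tags kept of 23090154 sequenced, and the vehicle list on 1459665 of 11377334, both after a limit of 1 tag per position. The same control of 28125771 kept tags served both. The ratio of SFN to vehicle tags was 5.10 for kept tags and 2.03 for sequenced tags. Heights and folds depend on depth and were not tested between the lists.

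Most clusters stood beside a centromere. The gap positions are those generally known for hg19 and were not read from a file here, so distances rest on them. Of the 35 SFN clusters, 27 lay within 5 Mb of the centromere gap of their chromosome, 23 within 1 Mb, and 12, holding 228 rows, within 0.1 Mb. Of the 26 vehicle clusters the counts were 22, 20 and 12. By rows, 84.0% of SFN and 90.5% of vehicle cluster rows were within 5 Mb, against 54.3% and 44.4% of rows in groups of 2 to 4 and 10.8% and 10.4% of the rows that had no other within 10000 bp. No summit of any row on chromosomes 1 to 22 fell inside a gap, and the few rows that reached past an edge did so by at most 72 bp. No tag can align inside a gap, so this bears on the gap positions used and not on the peaks. Both arms were represented, with 18 SFN clusters on the short-arm side and 9 on the long-arm side of a gap within 5 Mb, and 13 and 9 vehicle clusters.

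**Figure D1:**
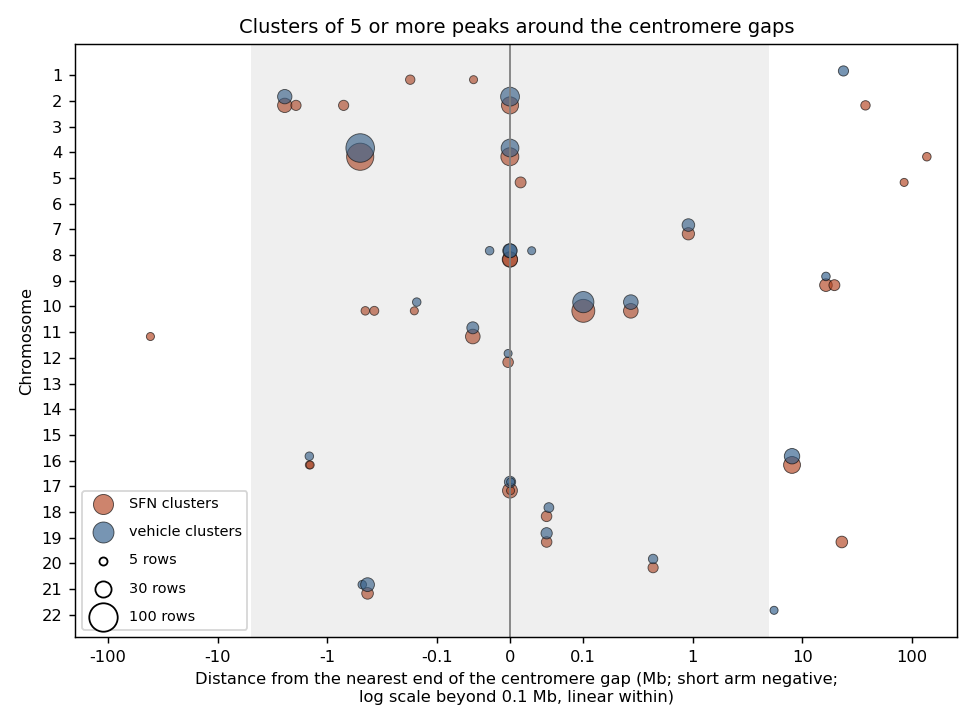
Each circle is a cluster, placed by its distance in Mb from the nearest end of the centromere gap (short arm negative; log scale beyond 0.1 Mb, linear within) and its chromosome; area grows with the number of rows, and the grey band marks 5 Mb. The band holds 27 of 35 SFN and 22 of 26 vehicle clusters, and chromosomes 3, 6, 13, 14 and 15 have none.

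Several clusters ended where the assembled sequence ends. On chromosome 17, the SFN cluster chr17:22244726-22262910 stopped 0.096 kb before the gap and chr17:25263740-25268029 began 0.734 kb after it. On chromosome 8, chr8:43790517-43838732 stopped 0.155 kb before the gap and chr8:46838897-46861703 began 0.010 kb after it. The clusters chr4:49633456-49659853 and chr12:34831573-34854045 ended 0.264 kb and 2.65 kb before theirs. The vehicle list had clusters at the same 6 edges, at distances from 0 to 2.65 kb. Some other distances, singled out after they were seen, were alike. They were 49.937 kb for chr1:121478536-121485497, 50.936 kb for chr11:51568818-51593269, 49.995 kb for chr18:18510893-18520431 and 50.096 kb for chr19:27731878-27740365, all SFN clusters. For chr10:42355371-42409492 the distance was 100.44 kb. Whether these stretches are assembled was not determined, so whether these clusters too end at unassembled sequence is not known. Chromosomes 1, 9 and 16 are known for large blocks of satellite heterochromatin on the long arm, which hg19 also shows as gaps. The cluster chr16:46386814-46435486 lay 8.05 Mb from the centromere gap but 1.01 kb from the end of this second gap. With these blocks counted as part of the gap, 30 SFN and 24 vehicle clusters were within 5 Mb, and they held 93.9% and 97.0% of the cluster rows. This measure was added after the positions were seen. On chromosome 9, chr9:66783184-66835971 had 17 SFN rows of 14 to 106 tags, 9 of them shared, at 16.4 Mb from the centromere gap and 1.42 Mb from the heterochromatin block. The vehicle cluster in it, chr9:66784151-66804040, had 6 rows of 8 to 31 tags, 5 of them shared. Further along, chr9:69975826-70010171 had 12 SFN rows of 13 to 67 tags, 4 of them shared, at 19.6 Mb and 4.61 Mb, and no vehicle cluster.

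Clusters were found on 17 of the 22 autosomes, on 15 of them in both lists. Chromosome 5 had clusters in the SFN list alone and chromosome 22 in the vehicle list alone. The chromosome 5 cluster beside the gap did hold 4 vehicle rows, under the limit of 5, and each overlapped an SFN row. The SFN clusters held from 5 to 91 rows with a median of 11, and spanned from 2.32 to 64.8 kb with a median of 22.5 kb. The vehicle clusters held from 5 to 101 rows (median 13) over 2.25 to 65.2 kb (median 19.5 kb). Summed over clusters, the spans came to 865 kb in the SFN list and 644 kb in the vehicle list, which is 0.0320% and 0.0239% of the genome size used for calling. On these stretches lay 37.8% of the SFN and 26.4% of the vehicle rows of chromosomes 1 to 22. That many rows lie on little sequence follows from the rule, which kept only rows close together. The summit pileups of the cluster rows, the tags stacked at the highest point of each peak, made up 64.3% and 58.4% of the summed pileup.

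Rows were unevenly divided among clusters. The 8 SFN clusters with most rows held 337 of 626 rows (53.8%), and the 8 largest vehicle clusters 330 of 507 (65.1%). At the other end, 7 SFN clusters had exactly 5 rows. Just outside the limit were 11 SFN groups of 4 rows, whose 44 rows had a median pileup of 42.5 tags and a median control level, as defined below, of 21.96. The 35 rows of the groups of 5 had 33 tags and 15.7. In the vehicle list 10 groups of 4 fell just outside, with 17 tags and a control level of 22.8, and 4 groups of 5 fell inside, with 14.5 tags and 16.2.

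Inside a cluster the peaks were close by the rule, which allows at most 10000 bp between neighbours. The median gap between neighbouring rows was 294 bp in the SFN list and 351 bp in the vehicle list, and 75.8% and 75.9% of gaps were at most 1 kb. Gaps over 5000 bp made up 4.91% and 4.57%. Peaks covered from 4.33% to 81.3% of a cluster's span in the SFN list, with a median of 30.3%, and from 3.79% to 63.9% in the vehicle list, with a median of 20.97%. The most filled SFN cluster was chr17:22244726-22262910 at the short-arm edge of the gap, and the least filled was chr10:38777913-38804529. Cluster rows were wider than single rows, with a median of 311 bp against 182 bp in the SFN list and 278 bp against 154 bp in the vehicle list. The longest was the SFN row chr2:92322339-92326243, of 3905 bp, which reached 72 bp past the edge of the gap.

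By its quartiles, pileup was higher in clusters than elsewhere within each list. In the SFN list the quartiles of cluster rows were 34, 50 and 77 tags, against 8, 11 and 17 tags for rows that stood alone. In the vehicle list they were 17, 24 and 33 tags against 4, 5 and 5. Groups of 2 to 4 lay between, with medians of 25 tags (SFN) and 11 tags (vehicle). Of the 100 tallest rows of chromosomes 1 to 22, 78 of the SFN and 84 of the vehicle list were cluster rows. Among all rows of those chromosomes the shares were 37.8% and 26.4%. With 1 tag per position and strand, and fragments of 153 bp (SFN) and 154 bp (vehicle), a pileup cannot exceed 306 and 308 tags. The tallest SFN cluster row, chr1:121483960-121485497, had 287 tags, which is 93.8% of that ceiling. In all, 29 SFN cluster rows reached at least 153 tags, or 50% of the ceiling. The tallest vehicle cluster row, chr10:42389026-42389735, had 120 tags, or 39.0% of it. Taller vehicle rows lay outside clusters, at up to 188 tags in groups of 2 to 4 and 142 tags alone. The span of the SFN cluster chr1:121478536-121485497, which holds the tallest SFN row, had 3 vehicle rows of up to 188 tags. These were too few for a vehicle cluster.

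The control was high at the same places. The local control level, worked out from each row's fold and pileup and expressed relative to the genome-wide average, had quartiles of 17.6, 27.0 and 51.5 in SFN cluster rows and 17.3, 29.9 and 56.1 in vehicle cluster rows. In groups of 2 to 4 the medians were 9.12 and 8.73, and in rows standing alone 1.54 and 1.25. The lowest level of any row on chromosomes 1 to 22 was 1.0, the genome average, in both lists. A level of 1 is therefore read as the floor of this measure, and the control there may be lower. A level of 10 or more was found in 562 of 626 SFN (89.8%) and 454 of 507 vehicle cluster rows (89.5%), against 82 of 173 and 88 of 189 rows in groups of 2 to 4, and 63 of 859 and 49 of 1225 rows standing alone. High control was thus also found outside clusters, above all in the smaller groups. The highest level was 171 times the genome average, at the tallest SFN row on chromosome 1. By cluster, the median level was 10 or more in 30 of 35 SFN and 22 of 26 vehicle clusters. Only chr4:189366052-189370109 in the SFN list and chr1:148254770-148295306 in the vehicle list had a median under 3. How far tags from repeated DNA make up the height of cluster rows was not tested.

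**Figure D2:**
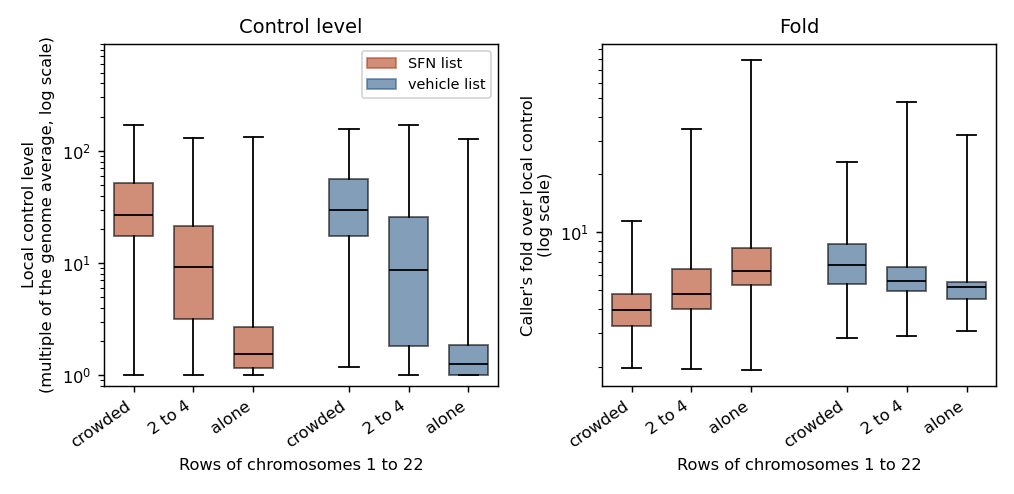
Local control level (left, multiple of the genome average) and the caller's fold (right), both on log axes, for rows of chromosomes 1 to 22 in clusters, in groups of 2 to 4 and alone; boxes span the quartiles with the median, and whiskers reach the lowest and highest rows. Control medians are 27.0 and 29.9 in clusters and 1.54 and 1.25 alone, while cluster fold is the lowest of the 3 kinds for SFN (median 3.94) and the highest for vehicle (median 6.81).

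Fold over the local control, the authors' value for each peak, differed between clusters and single rows in opposite directions in the 2 lists. In the SFN list the median fold was 3.94 in cluster rows and 6.33 in rows standing alone, and in the vehicle list it was 6.81 and 5.19. The fold adds 1 tag to both pileup and control, which weighs most on low rows at low depth. Vehicle rows standing alone had a median of 5 tags and fold quartiles of 4.53 and 5.54. How far the opposite directions come from depth was not tested. None of the 100 SFN rows with the highest fold was a cluster row, against 70 of the 100 in the vehicle list. Cluster rows made up 37.8% of all SFN and 26.4% of all vehicle rows of chromosomes 1 to 22. A fold of 10 or more was found in 1 of 626 SFN cluster rows and in 67 of 507 vehicle cluster rows. Over all rows of chromosomes 1 to 22 it was found in 150 of 1658 and 95 of 1921. That SFN row, chr5:134263293-134263576, had 47 tags and a fold of 11.5 and overlapped no vehicle row. The vehicle cluster row with the highest fold, chr20:29829353-29829889, had 49 tags and a fold of 23.3 and overlapped an SFN row. The lowest folds of cluster rows were in chromosome 16 beside the heterochromatin gap, at 1.97 for SFN and 2.81 for vehicle.

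Most cluster rows overlapped a row of the other list. Over all rows of chromosomes 1 to 22, 32.3% of SFN rows overlapped a vehicle row by at least 1 bp and 31.1% of vehicle rows overlapped an SFN row. Among cluster rows it was 423 of 626 (67.6%, exact 95% interval 63.7 to 71.2) in the SFN list and 454 of 507 (89.5%, 86.6 to 92.1) in the vehicle list. Rows outside clusters were shared in 10.95% and 10.1%, and those in groups of 2 to 4 in 26.6% and 35.45%. The intervals cover counting error alone, and rows of 1 cluster may not be independent of each other. Cluster rows are wide and close together, so an overlap of 1 bp is easier to reach there than among single rows. How much of the sharing comes from this was not tested. Within clusters, shared SFN rows had a median of 58 tags and unshared ones 33 tags, with median control levels of 30.7 and 19.5. In the vehicle list the medians were 25 and 11 tags. Of the 203 unshared SFN cluster rows, 109 (53.7%) had a vehicle row within 1 kb. For the 53 unshared vehicle cluster rows, 26 (49.1%) had an SFN row within 1 kb. The same share was not worked out for rows outside clusters. Rows in clusters are close together, so a near neighbour is easier to find there. No SFN cluster had all of its rows shared, whereas 8 vehicle clusters did.

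When clusters of both lists with overlapping spans were joined, 39 regions resulted, of which 21 held a cluster in each list, 14 in the SFN list alone and 4 in the vehicle list alone. Here alone means that the other list had no cluster, not that it had no row. Only 3 of the 14 and 2 of the 4 held no row of the other list. In the median of the 21 common regions, 97.97% of the SFN span and 99.9% of the vehicle span lay in the other list's clusters, but some spans met only in part. The lowest SFN share was 37.7%, on chromosome 9, and the lowest vehicle share 40.8%, on chromosome 10 at chr10:39076589-39102024. The common regions held 513 SFN and 486 vehicle rows. Of these regions, 8 had more vehicle rows, 10 had more SFN rows and 3 had equal numbers. Row counts also depend on where the caller split or joined peaks. In the SFN list 67 cluster rows overlapped 2 or more vehicle rows, and 24 vehicle cluster rows overlapped 2 or more SFN rows.

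The cluster with most rows, chr4:49093815-49158634, had 91 SFN rows with 23 to 107 tags (median 51) and control levels from 12.4 to 67.8. Its vehicle counterpart, chr4:49093301-49158543, had 101 rows with a median of 26 tags and at most 55. Overlap was found for 88 of the SFN and 100 of the vehicle rows. Peaks covered 66.4% of the SFN span and 63.9% of the vehicle span. Nearer the gap on the same arm, chr4:49633456-49659853 had 38 SFN rows (24 to 79 tags) and the vehicle list 37 rows there (at most 44 tags).

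**Figure D3:**
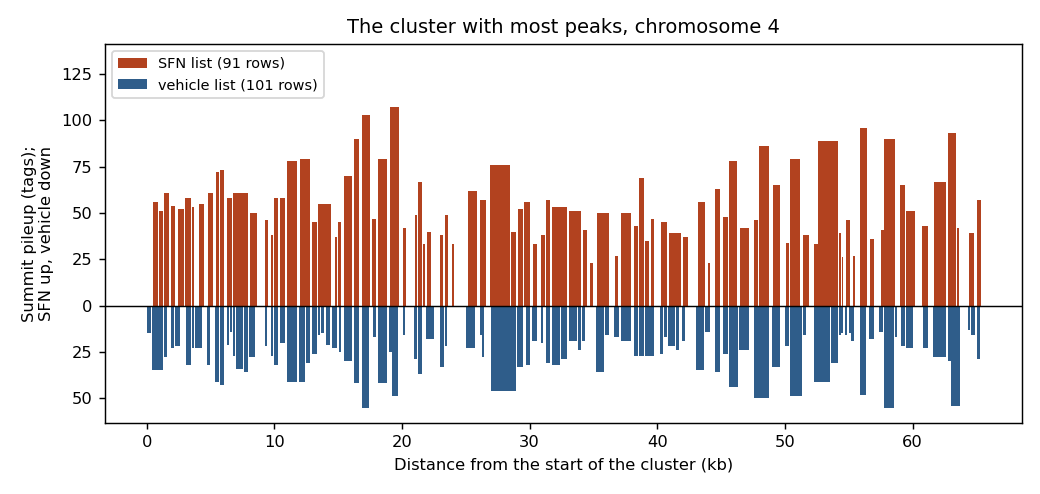
Rows of the chromosome 4 cluster as bars, placed by distance in kb from its start, each as wide as the peak and as tall as its summit pileup in tags, with SFN up and vehicle down. The 91 SFN rows reach 107 tags and the 101 vehicle rows 55, and 88 of the SFN rows overlap a vehicle row.

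Chromosome 10 carried the cluster next in size, chr10:42355371-42409492, on the long-arm side of the gap. It had 64 SFN rows with 28 to 232 tags (median 51), 52 of them shared, and 54 vehicle rows with a median of 29.5 tags. On chromosome 2, chr2:92268242-92326243 had 34 SFN rows of 27 to 189 tags (median 85) and 42 vehicle rows with a median of 36. The cluster beside the chromosome 16 heterochromatin gap had 33 SFN rows of 71 to 132 tags, the highest lower limit among these 8 clusters, and a median control level of 85.3. All 27 vehicle rows there were shared, but 18 of the 33 SFN rows. On chromosome 8, the short-arm cluster had 27 SFN rows (21 to 110 tags) and the long-arm cluster 25 (26 to 107 tags). The vehicle list had 6 and 22 rows in 2 clusters on the short arm and 21 rows in its counterpart on the long arm, all shared. On chromosome 17, chr17:22244726-22262910 had 25 SFN rows of 41 to 122 tags, of which 9 were shared, and all 13 vehicle rows in it were shared. Among these 8 clusters the share of SFN rows found in both lists ran from 36.0% to 96.7%, and in each of them the share was higher for the vehicle rows.

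Overlapping rows that were in clusters of both lists formed 473 pairs, built from 390 SFN and 449 vehicle rows. A row could enter more than 1 pair, since 67 SFN cluster rows overlapped 2 or more vehicle rows. Summits were at most 50 bp apart in 222 cluster pairs (46.9%), against 43 of 62 pairs of rows alone in both lists (69.4%). The median SFN pileup of the pairs was 67 tags and the median vehicle pileup 26 tags, and the median ratio within pairs was 2.42 (quartiles 1.90 and 3.24). This ratio lay below the ratio of kept tags, 5.10, in 460 of 473 pairs (97.3%). It lay above the ratio of sequenced tags, 2.03, in 316 pairs (66.8%). Per kept tag the clusters were therefore taller in the vehicle list, and per sequenced tag the median pair was taller in the SFN list, so the direction turned with the scaling. All 21 common regions had a median ratio below 5.10, and 14 of them were above 2.03. By the caller's own scaling, fold was higher in the vehicle row in 461 of 473 pairs (97.5%). Both lists used the same control, and its median level in these pairs was 35.8 (SFN) and 33.7 (vehicle) times the genome average. Fold therefore largely repeats the comparison per kept tag and is no separate observation.

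Pairs of rows that stood alone in both lists differed in this. Their 62 ratios had a median of 2.87 and reached 18.4, and 12 of them (against 13 of the 473 cluster pairs) lay above 5.10. Fold was higher in the vehicle row in 26 of the 62. In the 21 of them with a control level under 3 in both lists, the median ratio was 3.50 and fold was higher in the vehicle row in 0. A pair needs a call in both lists, which leaves out places too low for the shallower vehicle list, more so among low rows. The difference between kinds of pairs was not tested.

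**Figure D4:**
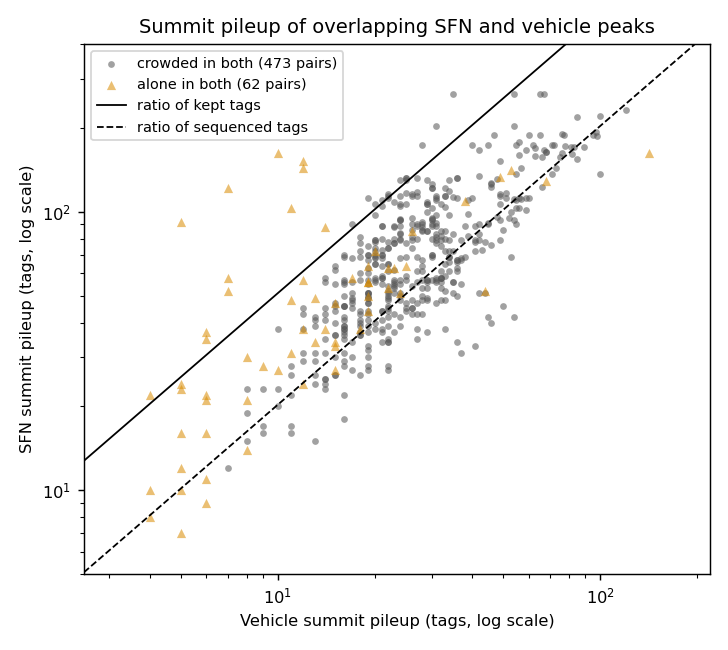
SFN against vehicle summit pileup, in tags on log axes, for overlapping rows in clusters of both lists (circles, 473 pairs) and alone in both lists (triangles, 62 pairs); the solid line is the ratio of kept tags, 5.10, and the dashed line that of sequenced tags, 2.03. Of the cluster pairs 460 lie below the solid line, whereas 12 of the 62 pairs standing alone lie above it.

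The common regions were not alike in this ratio. Their medians ran from 1.80, at chr16:33865569-33876797, to 4.07, at chr17:22244726-22262993. In 6 regions the median was over 3, a limit set after the values were seen: those of chromosomes 7 and 18, both edges of the chromosome 8 gap, the short-arm edge of chromosome 17, and chromosome 16 beside the heterochromatin gap. In these 6 the median vehicle fold of a region was between 3.66 and 5.56, and in the other 15 between 6.29 and 8.88, so the groups did not overlap. The fold is made from the same pileup as the ratio, so this is no independent observation. Median SFN folds overlapped between the groups, at 2.78 to 3.83 and 3.63 to 4.63.

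In the chromosome 11 cluster beside the gap, chr11:51568818-51593269, the tallest rows were evenly spaced. This cluster was singled out after its values were seen. Exactly 6 of its 24 SFN rows had 100 tags or more (170, 137, 194, 187, 161 and 103 tags), and their summits were 2047, 1990, 2048, 2101 and 2056 bp apart. In the vehicle list 6 of 15 rows had 50 tags or more (89, 71, 97, 98, 82 and 56 tags), with steps of 2048, 2052, 2053, 2037 and 2052 bp. Each of these SFN rows overlapped a vehicle row. The control level at them was high as well, from 70.9 to 120 times the genome average in the SFN list. Whether the step is that of a repeated unit was not determined without the sequence. Over all rows of this cluster the steps were not even, with 1 of 23 SFN steps and 0 of 14 vehicle steps within 5% of their median. The tallest rows of other clusters were not examined for even steps.

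**Figure D5:**
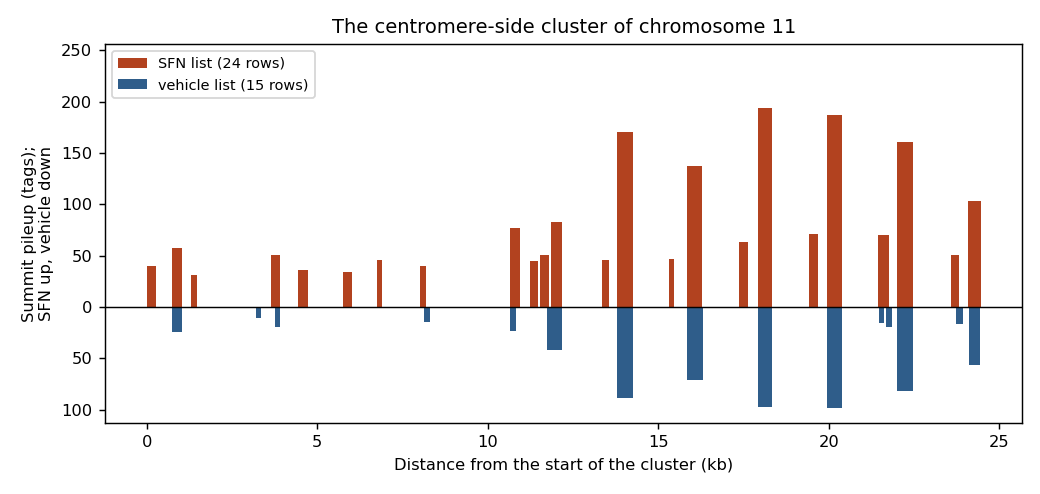
Rows of the chromosome 11 cluster beside the gap, as bars placed by distance in kb from its start, each as wide as the peak and as tall as its summit pileup in tags, SFN up and vehicle down. The 6 tallest SFN rows (103 to 194 tags) stand over the 6 tallest vehicle rows (56 to 98 tags), with SFN summits 1990 to 2101 bp apart.

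A few clusters lay over 5 Mb from the centromere and heterochromatin gaps used here. Other gaps of the assembly were not consulted. With the heterochromatin blocks counted in, these were 5 SFN clusters (38 rows) and 2 vehicle clusters (15 rows). The vehicle clusters were just over the limit, at 5.72 Mb on chromosome 1 and 5.52 Mb on chromosome 22. None of these 7 had a cluster in the other list, and 5 had no row of the other list anywhere in their span. The exceptions were chr2:132994902-133012880, with 8 SFN rows of which 4 were shared with 4 vehicle rows, and chr19:50594108-50642781, with 14 SFN rows and 1 vehicle row that overlapped none of them. The long arm of chromosome 2 is known to carry the remnant of an ancestral centromere, and whether the first lies on it was not determined. Its rows resembled those near gaps, with a median of 41 tags and a control level of 20.7. The chromosome 19 cluster was sparse and low, with 12 to 26 tags, a median control level of 5.94, and peaks over 8.02% of its span. Its median summit step was 3078 bp.

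On chromosomes 5 and 11, chr5:134259561-134264182 and chr11:10529345-10531659 each had 5 SFN rows and no vehicle row. Pileups on chromosome 5 were 65, 66, 78, 47 and 28 tags with folds from 6.53 to 11.5, the highest fold among SFN cluster rows. On chromosome 11 they were 38, 26, 34, 80 and 31 tags with folds from 3.29 to 7.04. Median control levels were 15.1 and 18.8. Nuclear copies of mitochondrial DNA are known on both of these arms, and the SFN list had 1 row on the mitochondrial genome, covering 16635 bp with 265 tags, where the vehicle list had 0. Whether the rows on chromosomes 5 and 11 lie in such copies was not tested.

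Among the remaining distant clusters, those on chromosomes 4 and 1 were low. In chr4:189366052-189370109 the 6 SFN rows had 9, 8, 6, 10, 13 and 9 tags and folds from 4.92 to 9.15. Their control level was 1, the genome average and floor of this measure, in 5 rows and 1.25 in the other. The rows covered 68.6% of 4.06 kb. The vehicle cluster chr1:148254770-148295306, had 10 rows of 4 to 6 tags spread over 40.5 kb, with a median control level of 1.45. The vehicle cluster chr22:21520436-21522689 was short, at 2.25 kb, with 5 rows of 8, 10, 12, 20 and 20 tags and a median control level of 13.1. Vehicle rows standing alone had medians of 5 tags and 1.25, and all vehicle cluster rows 24 tags and 29.9. That these 5 clusters had no row in the other list is the absence of a call and not a measured absence of tags.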

How the data were processed

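ChIP-seq peaks for NRF2 were deposited as 2 lists, 1 per treatment, and samples were grouped by the treatment and antibody in the labels. Per the file headers, peaks were called with MACS 2.1.0.20140616, with 1 treatment alignment against 1 control named for input and IgG, 1 tag kept per position and a q cutoff of 0.05. The sources used here do not say whether samples were pooled before calling. CASAVA 1.4, BWA and hg19 are named in the submitters' processing notes. Each row has a signal, the summit pileup in tags, a ratio, the fold over local control, and −log10 p and −log10 q values, all deposited by the authors.

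Rows were joined and compared with Python 3.11.15 and pandas 2.3.3, and joining and overlap were checked on made-up lists. A gap is the number of bases between 2 rows. The control level is the pileup plus 1, divided by the fold, minus 1, over the genome average at the list's depth (0.422 tags for SFN, 0.0833 for vehicle). Positions of centromere and heterochromatin gaps are those of general knowledge of hg19, not read from a file, and were checked by whether any summit fell inside one. This check cannot show a gap that is missing or set too small. Intervals of shares are exact (Clopper-Pearson), and those of medians come from order statistics. Both treat rows or pairs as independent. No test was made, because the rule used these positions and there is 1 list per treatment. Members and alternatives were chosen with earlier results of these data known. Clusters named are the 8 with most SFN rows and their vehicle counterparts, those over 5 Mb from a centromere gap and those with no row of the other list, and rows named are those with the highest pileup or fold. Other clusters and rows named, at gap edges or at the ends of a range, were chosen after their values were seen. Clusters on the sex chromosomes (7 with 220 SFN rows, 8 with 197 vehicle rows) were left out by the rule. No values specific to the IgG sample were used.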

Additional observations from a re-analysis of the deposited data

How the results depend on the processing

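Of 41 alternative values for 13 results, 32 stayed within a limit and 9 moved beyond it. For counts the limit was 1.5 times the count, which is wide, and all of them stayed within it. For shares and medians it was the 95% interval of the value, which treats rows or pairs as independent. Those of 1 cluster may not be, so these intervals may be too narrow and the tally is only a description. The counts of cluster rows ran from 543 to 697 (SFN) and from 432 to 592 (vehicle) over joining distances of 5000 and 20000 bp, limits of 3 and 10 rows, and rows with −log10 q of 5 or more. Shared SFN cluster rows were 57.0% when 50% of the row had to be covered and 62.6% without the cluster with most rows, against 67.6%; for the vehicle list 50% cover gave 85.6%, against 89.5%. Without the cluster with most rows, the vehicle median fold was 6.39 and its median control level 35.5, and with rows at −log10 q of 5 or more the fold was 7.29. The median pileup ratio of pairs was 2.23 with summits at most 50 bp apart, 2.58 without the cluster with most rows and 2.32 for SFN pileups under 100 tags, and the cause was not tested. The last of these, pairs with −log10 q of 5 or more, 1 pair per region, and the heterochromatin gaps were alternatives chosen after seeing the data. No paired analysis was possible because values exist per treatment and not per sample, and no replicate could be left out. The 1459665 kept vehicle tags limit what a missing vehicle row can show.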
